A study of Mus musculus with 10 samples.

Results

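The 8 genes described here encode dystrophin (Dmd), its homolog utrophin (Utrn), dystroglycan (Dag1), the sarcoglycans alpha, beta, and delta (Sgca, Sgcb, and Sgcd), sarcospan (Sspn), and alpha-dystrobrevin (Dtna). They were taken by name as genes of the dystrophin glycoprotein complex and utrophin, with Ensembl identifiers matched to symbols in a GRCm38 annotation, and all 8 were found among the 16112 genes counted. The rule that chose them names genes and uses no measured value, although earlier results of these data were known when it was set. Their expression was compared among 3 EDL, 3 psoas, and 4 soleus libraries.

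Dystrophin is a rod-shaped protein under the membrane of the muscle fiber that ties cytoskeletal actin to dystroglycan, and dystroglycan spans the membrane and holds laminin outside the fiber through its sugar chains. The sarcoglycans and sarcospan form a subcomplex within the membrane that steadies this link, while dystrobrevin and the syntrophins gather on its cytoplasmic face and recruit signaling proteins such as neuronal nitric oxide synthase. Loss of dystrophin causes Duchenne muscular dystrophy, loss of a sarcoglycan causes limb-girdle muscular dystrophy, and utrophin, which is concentrated at the neuromuscular junction of adult fibers, can stand in for dystrophin.

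The extensor digitorum longus (EDL) and the psoas are fast muscles, and the soleus is rich in slow fibers. All mice were homozygous wild type and came from a colony of the strain B6C3Fe a/a-Ttnmdm/J, and the tissues were harvested from animals of another study. The EDL and psoas libraries 1, 2, and 3 came from mice aged 42, 54, and 44 days, and soleus 1 to 4 from mice aged 42, 44, 32, and 44 days. The labels give 7 animal codes to the 10 libraries and the methods state fewer mice than codes, so the libraries are not all independent. Psoas 1 and soleus 1 share an animal code, as do EDL 3 and soleus 2, and psoas 3 and soleus 4. Sex is male in replicates 1 and 2 of EDL and psoas and in soleus 1, female in EDL 3, psoas 3, soleus 2, and soleus 4, and is not given for soleus 3. Low-quality bases were trimmed from the reads of EDL 1 and 2 and psoas 1 and 2 but from no other library, so that trimming cannot be told apart from male sex within EDL and psoas and varies with the muscle.

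Total counts per library ranged from 12737971 to 50431713. The muscle labels were checked with myosin heavy chain genes. Myh7, the slow isoform, was at 6836 to 13574 normalized CPM (read counts scaled to a common library size by TMM) in the soleus libraries and at 3.19 to 117 in the others. Myh4, a fast isoform, was at 113 to 1692 in soleus and at 38374 to 56666 in EDL and psoas. A gene was called where edgeR's quasi-likelihood test gave an adjusted p below 0.01 and the fold exceeded 2, which held for 340 genes in psoas over EDL, 929 in soleus over EDL, and 917 in soleus over psoas.

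All 8 genes were well counted in every library, from 200 counts (Sspn in EDL 3) to 19136 counts (Dmd in EDL 2). Levels of different genes were compared per kilobase of summed exons, as normalized CPM per kilobase (FPKM). Sgca, the adhalin subunit whose loss causes a common form of limb-girdle dystrophy, led in each muscle, at a mean of 66.7 ± 13.0 FPKM in EDL, 66.1 ± 7.02 in psoas, and 66.0 ± 10.6 in soleus (SD over 3, 3, and 4 libraries). Sgcb followed with 35.2 ± 13.7 FPKM in EDL, 45.0 ± 4.77 in psoas, and 30.4 ± 2.11 in soleus. Dmd was the third, with 13.5 ± 1.61, 11.8 ± 1.30, and 17.0 ± 1.52 FPKM. The libraries of Sgca lay above those of Sgcb, and those of Sgcb above those of Dmd, in each muscle.

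Below these 3 genes the order depended on the muscle. In EDL it ran from Sgcd (5.59 FPKM) through Dag1 (4.65), Dtna (4.20), and Utrn (3.45) to Sspn (1.79), and of these neighbors only Utrn and Sspn had libraries that did not overlap. In psoas, Dag1 (10.3) overlapped Dmd and stood above Sgcd (5.85), while Dtna (5.49) and Sspn (4.15) came next and Utrn (2.24) was the lowest. In soleus, Dag1 (9.02) and Sgcd (8.20) overlapped, and Sspn (4.41), Dtna (3.98), and Utrn (3.20) followed, each overlapping the next. The order of the lower genes also depended on the length used. With the longest transcript in place of the summed exons, Dtna came next after Dmd in EDL (11.3 FPKM) and psoas (14.8), and Dmd overlapped Sgcb in soleus (27.2 against 32.5).

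**Figure D1:**
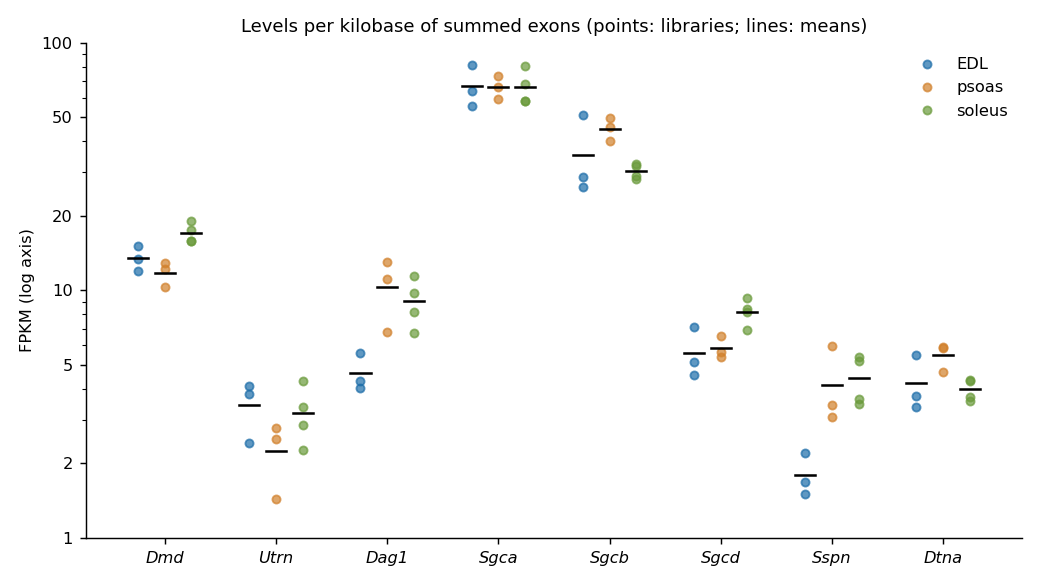
Levels of the 8 genes in FPKM (normalized CPM per kilobase of summed exons, log axis) in each EDL (blue), psoas (orange), and soleus (green) library, with a line at each mean. Sgca sits near 66 in all 3 muscles, and Sspn has a mean of 1.79 in EDL beside 4.15 in psoas and 4.41 in soleus.

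Between muscles, Sspn and Dag1 were the members that differed most, and in the same way: both were lowest in EDL, with overlapping libraries in psoas and soleus. Dmd and Sgcd had their highest means in soleus and Sgcb and Dtna in psoas, none past the threshold, and Sgca differed least. Of the 8 members, 1 was called in soleus over EDL (Sspn), where 5.77% of all genes were called. In psoas over EDL, 0 of 8 were called by edgeR against 2.11% of all genes. In edgeR's test 2 members had an unadjusted p under 0.05, as had 4679 of all 16112 genes. DESeq2 called 2 members and 1095 genes in all, and limma-voom 0 members and 353 genes. In soleus over psoas, 0 of 8 were called by edgeR against 5.69% of all genes. DESeq2 and limma-voom called 0 members, beside 1382 and 818 genes in all. By edgeR, 4 members had an unadjusted p under 0.05, as had 4574 of all 16112 genes.

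At the looser limit of an adjusted p under 0.05 and any fold, Dag1 and Sspn were higher in psoas than in EDL (2 of 8 members), as were 4.76% of all genes. The same 2 members were higher in soleus than in EDL, as were 9.79% of all genes. Both comparisons use the same EDL libraries. In soleus over psoas, none of the 8 passed this limit in edgeR's test, beside 14.5% of all genes in either direction. The libraries did not overlap and were higher in the muscle named first for 2 members in psoas over EDL and for 3 in soleus over EDL, against 13.4% and 15.2% of all genes. In soleus over psoas they were higher for 2 members and lower for 2, against 13.9% and 11.9% of all genes. The median log2 fold change of the members was 0.21, 0.16, and 0.04 in these comparisons, beside 0.01, -0.05, and 0.02 over all genes.

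**Figure D2:**
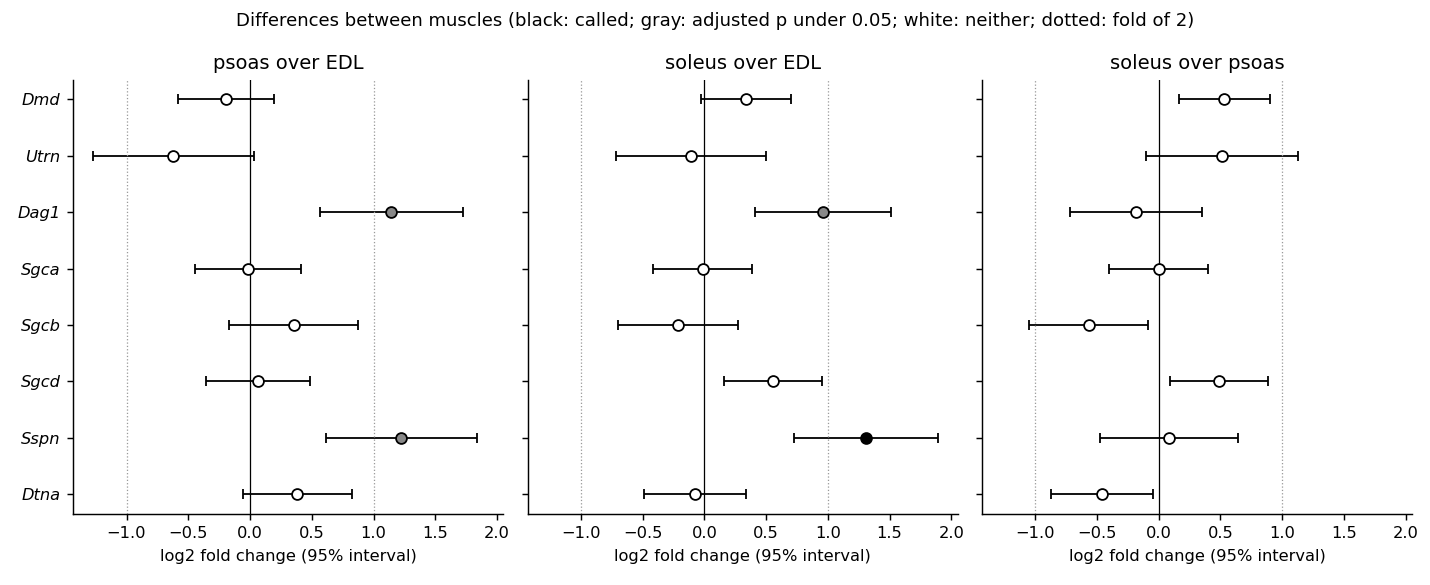
Log2 fold change of each member (horizontal axis) with its 95% interval from edgeR in the 3 comparisons, where positive values are higher in the muscle named first. Sspn and Dag1 lie above 0 in both comparisons with EDL, and the interval of Sgca covers 0 in all 3.

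Dystrophin had the smallest spread within muscles of the 8 members (SD of the log2 level 0.15). Dmd (chromosome X, 82948870 to 85206141, plus strand, GRCm38) had 319, 361, and 284 normalized CPM in EDL 1 to 3, 246, 289, and 307 in psoas 1 to 3, and 377, 377, 452, and 417 in soleus 1 to 4. All 4 soleus libraries were above all EDL and psoas libraries, and EDL and psoas overlapped. By edgeR, the log2 fold change was 0.53 (SE 0.17, adjusted p = 0.055) in soleus over psoas, or 1.45-fold with a 95% interval of 1.12 to 1.86, and did not pass the threshold. It was 0.34 (SE 0.17, adjusted p = 0.173) in soleus over EDL and -0.20 (SE 0.18, adjusted p = 0.505) in psoas over EDL by the same test. Within the untrimmed libraries, the mean of the 4 soleus libraries was 1.43 times EDL 3 and 1.32 times psoas 3.

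Utrophin had the widest spread within muscles (SD of the log2 level 0.43). Utrn (chromosome 10, 12382188 to 12869365, minus strand) was at 65.5, 70.0, and 41.5 normalized CPM in EDL, at 47.6, 24.7, and 42.8 in psoas, and at 48.9, 73.6, 38.8, and 57.6 in soleus. The muscles overlapped, with the lowest value in psoas 2 and the highest in soleus 2. The log2 fold change in psoas over EDL was -0.62 (SE 0.30, adjusted p = 0.194 by edgeR), with an interval from -1.27 to 0.03. It was -0.91 between the trimmed libraries, taken as the log2 ratio of their means, and 0.04 between the untrimmed libraries psoas 3 and EDL 3. In soleus over EDL it was -0.11 (adjusted p = 0.811 by edgeR), and in soleus over psoas 0.51 (adjusted p = 0.262 by edgeR).

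Reads of Dmd and Utrn can be told apart: of 23927 different stretches of 75 bases (the read length) in Dmd transcripts and 17165 in Utrn transcripts, 0 were shared with any other gene in the annotation. The ratio of the 2 genes within a library needs no scaling between libraries. Per kilobase, Dmd exceeded Utrn by 3.51, 3.71, and 4.93 times in EDL 1 to 3, by 3.72, 8.42, and 5.16 times in psoas 1 to 3, and by 5.55, 3.68, 8.39, and 5.20 times in soleus 1 to 4. The mean ratio was 4.05 ± 0.77 in EDL, 5.76 ± 2.41 in psoas, and 5.70 ± 1.96 in soleus (SD over 3, 3, and 4 libraries), and the ranges overlapped. The log2 ratio of Utrn to Dmd differed by -0.44 from EDL to psoas (exact two-sided permutation p = 0.2, 0.3 when adjusted over the 12 tests of ratios and shares), by -0.45 from EDL to soleus (exact p = 0.171, adjusted 0.294), and by -0.005 from psoas to soleus (exact p = 1). The smallest p such a test can give is 0.1 for 3 against 3 libraries and 0.0571 for 3 against 4.

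**Figure D3:**
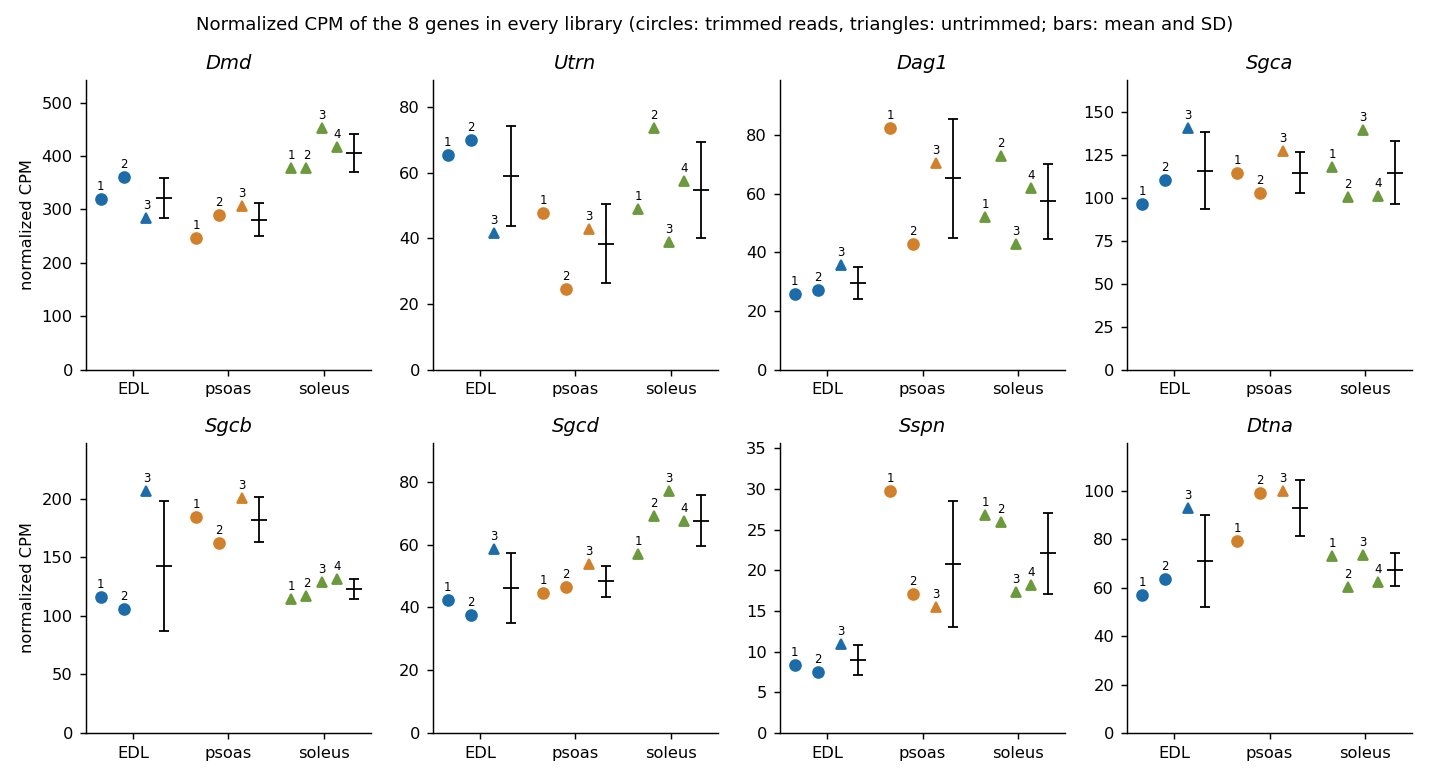
Normalized CPM (vertical axis, from 0) of each member in every library, numbered by replicate, with circles for trimmed and triangles for untrimmed libraries and bars for the mean and SD of each muscle. The EDL libraries lie below all others for Dag1 and Sspn, and the soleus libraries lie above all others for Dmd.

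Dystroglycan and sarcospan were the members low in EDL. Dag1 (chromosome 9, 108204634 to 108263958, minus strand) encodes the precursor that is cut into the laminin-binding alpha subunit and the dystrophin-binding beta subunit. It was at 25.7, 27.3, and 35.6 normalized CPM in EDL, at 82.4, 43.0, and 70.4 in psoas, and at 51.9, 72.7, 42.7, and 62.0 in soleus. Every psoas and soleus library was above every EDL library. By edgeR, Dag1 was 2.21-fold higher in psoas than in EDL (95% interval 1.48 to 3.30, log2 1.15, SE 0.26, adjusted p = 0.0207) and 1.94-fold higher in soleus than in EDL (1.33 to 2.84, log2 0.96, SE 0.25, adjusted p = 0.0223). The difference between soleus and psoas was -0.19 on the log2 scale (interval -0.72 to 0.35, adjusted p = 0.667 by edgeR). DESeq2 called Dag1 in psoas over EDL (log2 1.16, adjusted p = 0.000564). The direction held without any single library, but the looser limit did not. In psoas over EDL, edgeR's adjusted p was 0.101 without EDL 1, 0.0849 without EDL 2, 0.0646 without psoas 1, and 0.0560 without psoas 3. In soleus over EDL it was 0.111 without EDL 1, 0.0929 without EDL 2, 0.0570 without soleus 2, and 0.0539 without soleus 4. Both comparisons met the limit without any other library. With read trimming as a covariate, the adjusted p was 0.0143 and 0.162, respectively.

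Sspn (chromosome 6, 145931641 to 145965223, plus strand), a small protein that crosses the membrane several times and binds the sarcoglycans, was at 8.38, 7.48, and 10.98 normalized CPM in EDL, at 29.7, 17.1, and 15.4 in psoas, and at 26.8, 25.9, 17.3, and 18.2 in soleus. Again every psoas and soleus library exceeded every EDL library. By edgeR, Sspn was 2.48-fold higher in soleus than in EDL (interval 1.65 to 3.71, log2 1.31, SE 0.27, adjusted p = 0.00726), and 2.34-fold higher in psoas (1.53 to 3.57, log2 1.23, SE 0.28, adjusted p = 0.0196). The soleus over psoas difference was 0.08 (interval -0.48 to 0.64, adjusted p = 0.867 by edgeR). The direction in both comparisons with EDL held without any single library, but the call in soleus over EDL did not: the adjusted p passed 0.01 without EDL 1 (0.0441), EDL 2 (0.0428), soleus 1 (0.0194), soleus 2 (0.0211), soleus 3 (0.0108), soleus 4 (0.0123), or psoas 2 (0.01005), which enters through the shared estimate of the spread. DESeq2 called Sspn in psoas over EDL as well (log2 1.25, adjusted p = 0.000803). By edgeR, that comparison missed the looser limit of 0.05 without EDL 1 (adjusted p = 0.0956), EDL 2 (0.0863), or psoas 1 (0.0634). It met the limit without any other library. With the compared muscles only, edgeR's adjusted p was 0.0524. Within the untrimmed libraries, the soleus mean was 2.01 times EDL 3, and psoas 3 was 1.41 times EDL 3, against 2.95 times for the means of the trimmed libraries.

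In whole muscle, fewer cells of a type and less RNA per cell cannot be told apart, and several marker lists differed between the same muscles. Markers of tendon cells, 9 of 9 in the table and none at 0 in any library, summed to 798 to 856 normalized CPM in EDL, 32.3 to 84.1 in psoas, and 114 to 559.9 in soleus. Markers of fibroblasts (9 of 9) summed to 2662 to 4418 in EDL, 763 to 1079.5 in psoas, and 715 to 1631 in soleus, and those of macrophages (9 of 9) to 125 to 328, 53.8 to 139.8, and 103 to 160. The summed markers of adipocytes (8 of 8, with Lep at 0 in psoas 3) were lowest in EDL, as Dag1 and Sspn were. The sums were 342 to 444 in EDL, 571 to 620.2 in psoas, and 1819 to 1970 in soleus. Lpl was the largest part, at 218 to 255 in EDL, 429 to 532 in psoas, and 1596 to 1684 in soleus. Each other gene of the list overlapped between EDL and psoas, such as Fabp4, at 80.0 to 196 in EDL and 79.1 to 140 in psoas. Smooth muscle markers (8 of 8) summed to 253 to 409.8 in EDL, 532 to 809 in psoas, and 516 to 744 in soleus, most of it from Des, which the costamere also uses, and without Des the other 7 overlapped, at 56.2 to 108, 65.0 to 93.4, and 65.9 to 94.1. The EDL sums overlapped those of psoas and soleus for the markers of endothelium, Schwann cells, and satellite cells. The part of these lists in the differences of Dag1 and Sspn was not tested.

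Promoter sequences are shown for Dag1 and Sspn, the genes low in EDL, and for Sgca, the steadiest member, so that they can be read side by side. RefSeq windows on GRCm38.p6 matched 7 of the 8 members (not Dtna) with 10 start sites, and the 250 bases before a start are printed only where they touch no annotated exon, which held for 6 of the 10. Each line is written 5′ to 3′ on the strand of the gene and ends at the base before the start. The capitals mark the pattern CANNTG, the E-box bound by myogenic factors, which reads alike on both strands and takes in CAGCTG as a special case.
Dag1, chr9:108263959-108264208, minus strand: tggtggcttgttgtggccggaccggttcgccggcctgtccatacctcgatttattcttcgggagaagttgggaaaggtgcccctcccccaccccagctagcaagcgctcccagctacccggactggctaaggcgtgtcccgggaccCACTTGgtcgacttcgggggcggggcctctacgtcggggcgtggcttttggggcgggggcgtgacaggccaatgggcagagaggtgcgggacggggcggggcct
Sspn, chr6:145933872-145934121, plus strand: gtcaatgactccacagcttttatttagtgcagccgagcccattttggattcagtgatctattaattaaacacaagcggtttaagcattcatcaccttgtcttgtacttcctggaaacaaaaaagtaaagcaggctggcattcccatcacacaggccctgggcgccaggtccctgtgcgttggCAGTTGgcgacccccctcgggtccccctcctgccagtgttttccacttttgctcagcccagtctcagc
Sgca, chr11:94976328-94976577, minus strand: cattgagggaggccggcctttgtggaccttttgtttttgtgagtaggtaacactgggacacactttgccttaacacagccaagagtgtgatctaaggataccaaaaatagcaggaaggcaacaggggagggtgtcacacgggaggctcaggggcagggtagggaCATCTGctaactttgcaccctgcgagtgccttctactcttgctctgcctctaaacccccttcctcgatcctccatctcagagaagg

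Each of these windows held 1 match to CANNTG, a pattern found in 66.2% of 32851 such windows of 27025 genes, and none of them held CAGCTG, which 13.0% of windows hold. The Dag1 window was rich in G and C (67.6%, beside a median of 52.4%), with 21 CG dinucleotides and 3 matches to GGGCGG on either strand, a pattern present in 32.7% of windows. The Sspn window had 51.2% GC, 6 CG dinucleotides and no GGGCGG, and the Sgca window 52.8%, 4 and none. This Sspn window lies before the more downstream RefSeq start of the gene. The window of the more upstream Sspn start touches an annotated exon, so it is not printed, and it held 0 matches to CANNTG. The window before the more upstream RefSeq start of Dmd held 1 CArG box, the motif of serum response factor, which 1.47% of windows hold.

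The sarcoglycans assemble with each other before reaching the membrane, and none of the 3 passed the threshold in any comparison. Sgca (chromosome 11, 94962791 to 94976327, minus strand) was at 96.2, 110.5, and 140.5 normalized CPM in EDL, at 114, 103, and 127 in psoas, and at 118, 100.5, 139, and 101 in soleus. The 3 muscles overlapped throughout. Its log2 fold changes lay between -0.01 and 0.00, and their 95% intervals reached from -0.44 to 0.42 at the widest, or from 0.735-fold to 1.33-fold in psoas over EDL. Differences within these bounds are not excluded, and the bounds are not a limit of detection. The SD of its log2 level over the 10 libraries was 0.20, and 12.8% of the 3960 genes with a mean between those of the lowest and highest member had a smaller one. That share was 85.6% for Sspn and 80.8% for Dag1.

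Sgcb (chromosome 5, 73632749 to 73647790, minus strand) was at 116, 106, and 206 normalized CPM in EDL, at 184, 162, and 201 in psoas, and at 114, 117, 129, and 132 in soleus. All soleus libraries lay below all psoas libraries, and EDL 3 stood apart from EDL 1 and 2, at a level like that of psoas. The log2 fold change in soleus over psoas was -0.57 (SE 0.22, adjusted p = 0.115 by edgeR), which did not pass the threshold. In psoas over EDL it was 0.35 (adjusted p = 0.354 by edgeR), and it was 0.72 (adjusted p = 0.0133) without EDL 3, the untrimmed library of the group.

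Sgcd (chromosome 11, 46896253 to 47988969, minus strand) was at 42.3, 37.5, and 58.7 normalized CPM in EDL, at 44.6, 46.6, and 53.7 in psoas, and at 57.0, 69.3, 77.0, and 67.5 in soleus. All soleus libraries were above all psoas libraries, while EDL 3 overlapped soleus 1. By edgeR the log2 fold change was 0.55 (SE 0.18, adjusted p = 0.0543) in soleus over EDL, 0.49 (SE 0.18, adjusted p = 0.101) in soleus over psoas, and 0.07 (SE 0.19, adjusted p = 0.86) in psoas over EDL. None of these passed the threshold. Without EDL 3, the soleus over EDL value was 0.76 with an adjusted p of 0.00823 by edgeR, below a fold of 2. That fit sets only trimmed EDL libraries against untrimmed soleus libraries, and leaving out single libraries gave 0.42 to 0.76. Within the untrimmed libraries, the soleus mean was 1.15 times EDL 3, and the libraries overlapped.

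Within a library, the shares of Sgca, Sgcb, and Sgcd in their summed FPKM need no scaling between libraries either. The Sgca share was 62.2, 67.4, and 58.2% in EDL, 56.5, 56.4, and 56.6% in psoas, and 65.9, 60.8, 66.1, and 58.8% in soleus. The psoas libraries differed by less than 1 percentage point and lay below all others. The Sgcb share was 38.5 ± 0.37% (SD, n = 3) in psoas, 32.1 ± 4.45% (n = 3) in EDL, and 29.2 ± 3.01% (n = 4) in soleus, and the psoas libraries were above all others. The Sgcd share was 7.87 ± 0.90% in soleus, with every library above those of EDL (5.22 ± 0.48%) and psoas (5.02 ± 0.38%).

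For soleus against psoas, the difference in share was 6.41 percentage points for Sgca, -9.26 for Sgcb, and 2.85 for Sgcd, and each had an exact two-sided permutation p of 0.0571, the smallest that 3 against 4 libraries allow, or 0.171 after adjustment over the 12 tests. The same p belonged to the Sgcd share in soleus against EDL (2.65 points). For psoas against EDL, the exact p was 0.1 for Sgca (-6.13 points) and Sgcb (6.34 points), again the smallest possible, and 0.6 for Sgcd (-0.21 points). None of these designs could reach 0.05 and none of the shares passed it.

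**Figure D4:**
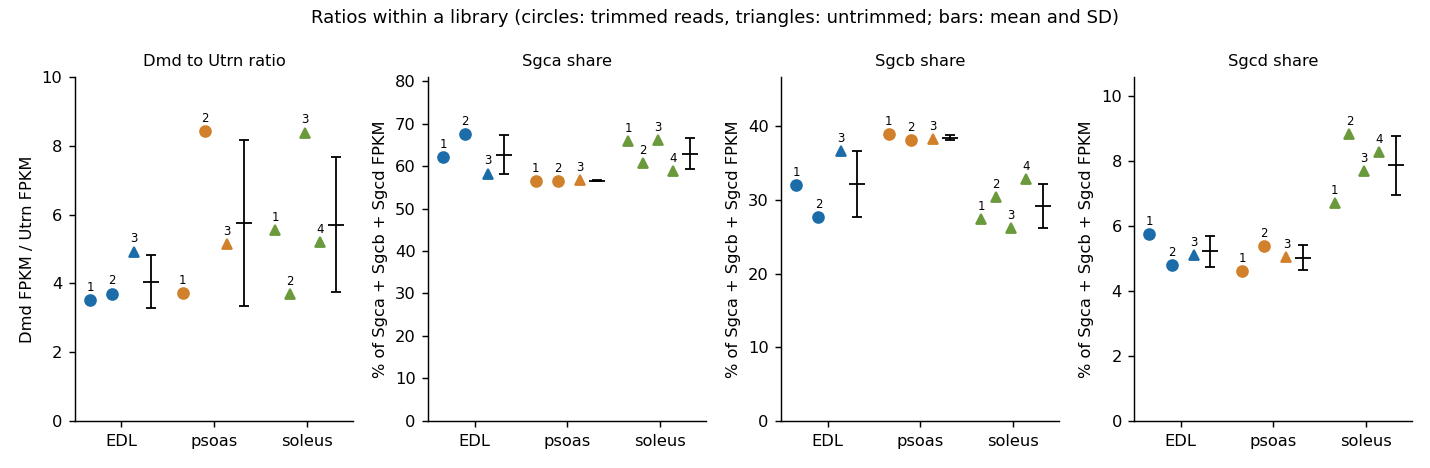
Within-library ratios by muscle: the ratio of Dmd to Utrn in FPKM, and the shares of Sgca, Sgcb, and Sgcd in their summed FPKM in percent, with a numbered point per library and bars for the mean and SD. The psoas libraries sit together at 56.4 to 56.6% for Sgca, and the soleus libraries are the highest for Sgcd.

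Alpha-dystrobrevin, the cytoplasmic member that carries the syntrophins, had its highest mean in psoas. Dtna (chromosome 18, 23415135 to 23659715, plus strand) was at 57.2, 63.5, and 92.9 normalized CPM in EDL, at 79.4, 99.4, and 99.8 in psoas, and at 73.1, 60.5, 73.6, and 62.5 in soleus. All soleus libraries lay below all psoas libraries, and EDL 3 lay among the psoas libraries. The log2 fold change was -0.46 (SE 0.19, adjusted p = 0.131 by edgeR) in soleus over psoas, 0.38 (adjusted p = 0.234 by edgeR) in psoas over EDL, and -0.08 (adjusted p = 0.8 by edgeR) in soleus over EDL, none past the threshold. In the annotation, an antisense gene overlaps exons of Dtna (Gm47898) and another those of Sspn (Sspnos). Neither is in the count table, and the strand setting of the counting is not stated, so reads within the overlaps cannot be assigned by strand here. Of 17258 stretches of 75 bases in Dtna, 16 (0.0927%) are shared with Gm47898 when both strands are searched. Sspn shares 0 of 4922 with any gene, Sspnos included, and the other members share none either.

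EDL 3, the untrimmed female library of its muscle, was the highest EDL library for 6 of the 8 members (Dag1, Sgca, Sgcb, Sgcd, Sspn, and Dtna) and the lowest for Dmd and Utrn. Within the untrimmed libraries, the ratio of psoas 3 to EDL 3 was 0.97 for Sgcb, 1.08 for Dtna, and 1.97 for Dag1, beside 1.56, 1.48, and 2.36 for the means of the trimmed libraries. The soleus mean over EDL 3 was 0.60 for Sgcb, 0.73 for Dtna, and 1.61 for Dag1. EDL and psoas are 1 library each in these untrimmed values, which carry no test.

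Proteins that bind the complex were followed through a list of 15 partner genes, of which 12 were in the table (not Sgcz, Sntg1, or Sntg2). Nos1 and Itga7 were called, both in soleus over psoas, where 5.69% of all genes were called. In psoas over EDL, 0 of the 12 were called by edgeR against 2.11% of all genes. By edgeR, 5 partners had an unadjusted p under 0.05, as had 4679 of all 16112 genes. DESeq2 called 1 of the 12 and 1095 genes in all. In soleus over EDL, 0 were called by edgeR against 5.77% of all genes. Here 3 partners had an unadjusted p under 0.05 by edgeR, as had 5646 of all genes. DESeq2 called 0 of the 12 and 1520 genes in all. Nos1, neuronal nitric oxide synthase, was at 6.70, 11.5, and 21.7 normalized CPM in EDL, at 45.6, 27.1, and 33.7 in psoas, and at 14.4, 6.10, 9.65, and 6.02 in soleus, so that every psoas library was above all others. It was lower in soleus than in psoas by 1.99 on the log2 scale (log2 fold change -1.99, SE 0.40, adjusted p = 0.00668 by edgeR), while psoas over EDL gave 1.43 (SE 0.43, adjusted p = 0.0521 by edgeR). Itga7, the alpha7 integrin that binds laminin beside the complex, was at 29.2 to 44.7 in psoas, 47.6 to 62.6 in EDL, and 54.6 to 109 in soleus, and was higher in soleus than in psoas (log2 1.21, SE 0.26, adjusted p = 0.00916 by edgeR).

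Among the other partners, Sgce, the epsilon sarcoglycan also found in vascular and nerve tissue, was at 9.72 to 11.9 normalized CPM in EDL, 4.89 to 7.26 in psoas, and 4.79 to 5.82 in soleus. Its log2 fold change was -0.89 (adjusted p = 0.0203 by edgeR) in psoas over EDL and -0.95 (adjusted p = 0.00639) in soleus over EDL, below a fold of 2 in both. Sgce was thus highest in EDL, as were the tendon and fibroblast markers above, whose part in it was not tested. Cav3, the caveolin of muscle, was at 33.5 to 48.0 in EDL, 52.6 to 61.8 in psoas, and 49.5 to 70.6 in soleus, with 0.65 (adjusted p = 0.0272 by edgeR) in soleus over EDL.

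Dtnb (beta-dystrobrevin), Sntb1 and Sntb2 (beta syntrophins), Lama2 (the laminin alpha2 chain of muscle), Agrn (agrin), and Itgb1 (the integrin beta1 chain) had adjusted p-values over 0.05 in all 3 comparisons by edgeR. The median log2 fold change of the 12 partners was -0.10 in psoas over EDL, -0.12 in soleus over EDL, and -0.01 in soleus over psoas, against 0.01, -0.05, and 0.02 over all genes.

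The enzymes that build the laminin-binding sugar of dystroglycan were represented by 17 of 18 listed genes. In psoas over EDL, 0 were called by edgeR. In soleus over EDL 1 was called higher and 0 lower, and in soleus over psoas 1 higher and 1 lower. Over all genes, 2.11, 5.77, and 5.69% were called in either direction. In psoas over EDL, 5 of the 17 had an unadjusted p under 0.05 by edgeR, as had 4679 of all 16112 genes. DESeq2 called 1 of the 17 and 1095 genes in all, and limma-voom 0 and 353. B3galnt2, which adds N-acetylgalactosamine to this sugar, was at 92.4 to 139 normalized CPM in psoas and 37.9 to 55.7 in soleus and was the gene called lower, with -1.40 (SE 0.23, adjusted p = 0.00198 by edgeR) in soleus over psoas. The median log2 fold change of the list was 0.02, -0.19, and -0.01 in the 3 comparisons, beside 0.01, -0.05, and 0.02 over all genes.

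At the costamere, the rib-like lattice that joins Z-disks to the membrane through dystrophin and the integrins, 19 of 20 listed genes were in the table. In soleus over EDL, 6 of the 19 were called, all higher, where 5.77% of all genes were called in either direction, and 8 were higher at an adjusted p under 0.05 by edgeR, as were 9.79% of all genes. The called genes included Csrp3, a LIM protein of the Z-disk (log2 3.99, SE 0.83), Flnc, filamin C (1.85, SE 0.25), Lims1 (1.61, SE 0.16), Tln2, talin 2 (1.44, SE 0.27), and Des, desmin (1.33, SE 0.26). Des was at 166, 302, and 197 normalized CPM in EDL, 716, 497, and 443 in psoas, and 626, 650, 513, and 440 in soleus, so that, as for Dag1 and Sspn, every EDL library was below all others. In psoas over EDL, 5 of the 19 costamere genes were higher at an adjusted p under 0.05 by edgeR, as were 4.76% of all genes, with a list median of 0.63 beside 0.01 over all genes, and Lims1 was the gene called in soleus over psoas (log2 1.59, SE 0.16).

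At the neuromuscular junction, where utrophin is concentrated, 12 of 13 listed genes were in the table. In soleus over EDL, 2 were called higher and 2 lower, against 5.77% of all genes in either direction. In soleus over psoas, 2 were called higher and 1 lower, against 5.69% of all genes. In soleus over EDL, Colq (log2 2.08, SE 0.40) and Musk (1.88, SE 0.40), the collagen tail of acetylcholinesterase and the receptor kinase that organizes the junction, were called higher, and Ache (-1.46, SE 0.25), the esterase itself, and Chrne (-1.57, SE 0.29), the adult subunit of the acetylcholine receptor, were called lower. In soleus over psoas, Chrna1 (1.70, SE 0.27) and Chrnd (1.98, SE 0.42), other receptor subunits, were called higher and Ache (-1.52, SE 0.25) lower. Utrn itself had adjusted p-values over 0.05 in all 3 comparisons by edgeR. Chrne and Chrnd were low, at 0.72 to 3.34 and 0.32 to 2.27 normalized CPM.

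**Figure D5:**
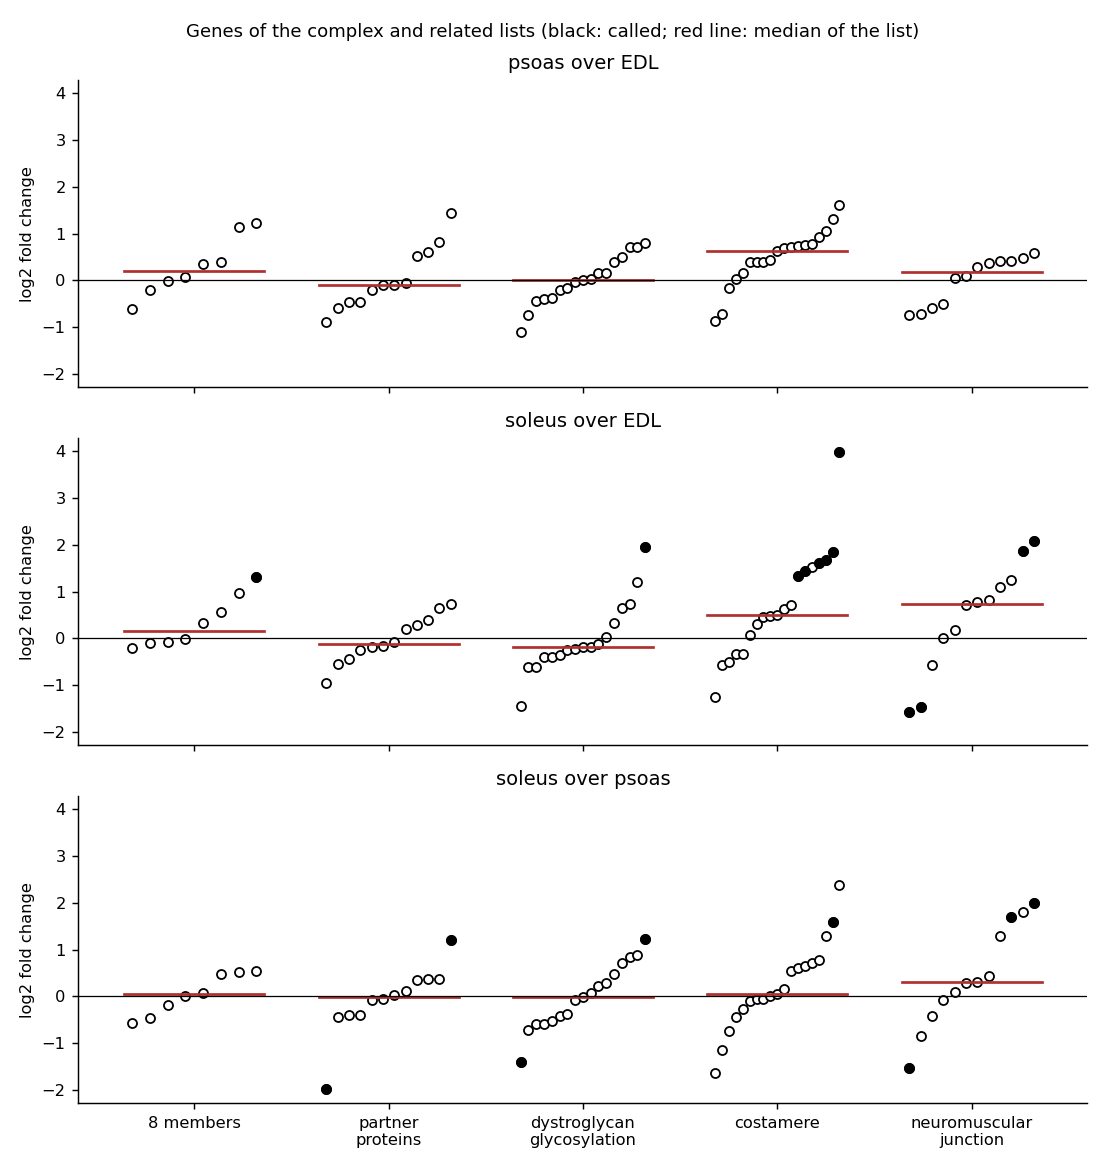
Log2 fold change (vertical axis) of each gene of the complex, its partners, the glycosylation enzymes of dystroglycan, the costamere, and the neuromuscular junction in each comparison, sorted within a list, with called genes in black and the list median as a red line. The costamere list has the highest of the 5 medians in psoas over EDL (0.63), and in soleus over EDL its median of 0.49 is below that of the junction list (0.74).

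Genes with a pattern like that of a member were sought over the 10 libraries by the root mean square (RMS) difference of centered log2 levels, among 12663 genes with a mean of at least 1 CPM. The nearest genes were Sin3b, Miga1, and Eif3l for Dmd (RMS 0.098 to 0.107, beside a median of 0.44 over all genes compared), Jcad, Fads3, and Dock1 for Utrn (0.136 to 0.149, median 0.58), and Rabif, Cnot9, and Spcs2 for Sgca (0.074 to 0.108, median 0.40). For Dag1 they were Irak1, Ubr4, and Ago2 (0.131 to 0.156, median 0.64), and for Sspn Znrf2, Fastk, and Git1 (0.200 to 0.212, median 0.71). For Sgcb they were St6galnac6, Tmem248, and Cyb5d1 (0.117 to 0.119), for Sgcd Hdac6, Cd2bp2, and Specc1l (0.085 to 0.094), and for Dtna Tarsl2, Alkbh8, and Pafah1b1 (0.077 to 0.103).

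No member was among the 3 nearest genes of another. Among the genes compared, Dtna had rank 70 by nearness to Sgcb and Sgcb rank 293 to Dtna (RMS 0.185), while Dag1 had rank 86 to Sspn and Sspn rank 269 to Dag1 (0.315). Sgcd had rank 1165 to Dmd (0.263) and Utrn rank 6423 (0.440), close to the median gene. Utrn had no member nearer than Dmd, at rank 2221. These ranks describe the 10 libraries, whose muscle, trimming, and depth the genes share, and carry no test.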

How the data were processed

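Total RNA of 10 muscle libraries was sequenced as stranded, ribosomal RNA-depleted 75-base read pairs in several runs. Per the labels and methods, the authors ran Trimmomatic 0.32 on the libraries of low base quality, TopHat2 2.1.1 for alignment to GRCm38.p4, and an R counter, and deposited raw counts without normalization. They kept a gene where 3 or more libraries had 10 or more reads, which all 16112 genes met. The run of each library, the strand setting, and the handling of reads with several alignments are not given in the sources used here.

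Counts were normalized with TMM and tested in 1 edgeR 4.0.16 quasi-likelihood fit (R 4.3.3) over the 10 libraries with no covariate, and p-values were adjusted (Benjamini-Hochberg) over all genes. A call needed an adjusted p under 0.01 and a fold over 2. Libraries sharing an animal code were treated as separate, so p-values measure the spread between libraries. Symbols, positions, and lengths came from GENCODE M21. FPKM is normalized CPM per kilobase, and likeness used log2(CPM + 0.5). Ratios were compared with exact two-sided permutation tests. The fit was first tested on simulated counts with 200 genes changed between psoas and EDL. At a log2 change of 1, edgeR called 0 of the 200, and 9 had an adjusted p under 0.05. At a log2 change of 2, it called 118 of the 200.

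Genes were named by a rule: the 8 members, 15 partners, called genes of 3 related lists, and the 3 nearest genes of each member. The members and lists were chosen with earlier results of these data known. Costamere, junction, glycosylation, and cell type lists were read by counts and summed levels. Alternatives were DESeq2 1.42.0, limma-voom 3.58.1, other scalings and filters, covariates, subsets, and each library left out. Some genes of these lists are counted in them but are not reported here.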

Additional observations from a re-analysis of the deposited data

How the results depend on the processing

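In psoas over EDL, soleus over EDL, and soleus over psoas, the main counts of 340, 929, and 917 became 1095, 1520, and 1382 with DESeq2, 605, 371, and 566 with read trimming as a covariate, 0, 48, and 33 with the untrimmed libraries only, and 1789, 2995, and 2340 at an adjusted p under 0.05 with any fold. In psoas over EDL they were also 153 with the compared muscles only and 865 with sex as a covariate and no soleus 3. The 0 calls among untrimmed libraries are from edgeR with 1 library each of EDL and psoas, assumed to vary like soleus. Leaving out 1 library gave 61 to 963, 385 to 1511, and 493 to 964 calls. Limma-voom, with or without the animal as a random effect, other scalings, and a filter at 1 CPM stayed within 1.5 times of each count. With upper-quartile scaling, the median over all genes in soleus over EDL was -0.14 (log2), against -0.05 with TMM.

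The members called in psoas over EDL were 2 with DESeq2 (Dag1 and Sspn), 1 with sex as a covariate (Dag1), and 2 at an adjusted p under 0.05 with any fold. In soleus over EDL, the 1 call (Sspn) became 0 with read trimming as a covariate (adjusted p = 0.0396 by edgeR) and with the untrimmed libraries only (0.215), 2 at the looser limit, and 0 to 1 without 1 library (0 for 7 of the 10, with log2 1.19 to 1.48). Soleus over psoas kept 0 calls throughout. In edgeR's test 4 members had an unadjusted p under 0.05, beside 4574 of all 16112 genes.

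The labels number replicates alike in the 3 muscles, but of libraries with the same number only psoas 1 and soleus 1 share an animal code. EDL and psoas libraries of the same number share age, sex, and trimming, so correlations between them cannot show whether they are paired. Deviations of EDL and psoas libraries of the same number correlated across genes at 0.25, 0.09, and 0.50, and those of soleus with them from -0.23 to 0.34. With the replicate block the calls were 146, 586, and 539 over all genes, and 291 for psoas over EDL in a fit of these muscles alone. Under the block, 0 members were called in soleus over EDL (Sspn log2 1.37, adjusted p = 0.0156 by edgeR), and Sgca was at 0.044 in soleus over EDL and 0.048 in soleus over psoas. For Dag1, the block gave an adjusted p of 0.0558 in psoas over EDL and 0.0745 in soleus over EDL by edgeR.

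Of 536 member fold changes under alternatives, 491 kept their direction and their side of the threshold and 29 changed sign, all of them for members not called in that comparison. With the untrimmed libraries only, the psoas over EDL log2 fold changes were 0.073 for Dmd, 0.0075 for Utrn, -0.078 for Sgcb, and -0.16 for Sgcd, and soleus over EDL was 0.35 for Utrn, which was 0.053 with the trimming covariate. Sgca in psoas over EDL was 0.0041 with DESeq2 and 0.0036 with its size factors in edgeR, and Sgcd was -0.00071 with upper-quartile scaling. Without 1 library, psoas over EDL ranged from -0.16 to 0.15 for Sgca and from -0.063 to 0.28 for Sgcd. Soleus over EDL ranged from -0.31 to 0.034 for Utrn, -0.18 to 0.15 for Sgca, -0.39 to 0.15 for Sgcb, and -0.26 to 0.16 for Dtna. Soleus over psoas ranged from -0.13 to 0.078 for Sgca and from -0.089 to 0.42 for Sspn. The log2 ratio of Utrn to Dmd in soleus over psoas ranged from -0.32 to 0.27. The Sgca share in soleus over EDL ranged from -1.92 to 2.68 points and was -0.85 with the longest transcript as length, and the Sgcd share in psoas over EDL ranged from -0.41 to 0.054. The cause of these changes was not tested.

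With 3 or 4 libraries per muscle, a member that missed the threshold is not shown to be equal between muscles. Trimming, sex, and age are unevenly spread over the muscles. The RNA integrity number that the study reports was higher in every EDL library than in any psoas or soleus library. Dag1 and Sspn set EDL apart from the other libraries in the same way. The part of these factors in the differences was not tested and cannot be fully told apart from that of the muscle.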
